A study of Mus musculus with 12 samples.

Results

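Calcium/calmodulin-dependent kinases carry the calcium signal of an active synapse into phosphorylation of synaptic and nuclear proteins. This report describes the transcripts of 10 of their genes out of the 37991 genes counted, chosen by symbol from the CaMKI, CaMKII, CaMKIV and CaMKK families because of their place in long-term potentiation: *Camk2a*, *Camk2b*, *Camk2d*, *Camk2g*, *Camk4*, *Camkk1*, *Camkk2*, *Camk1*, *Camk1d* and *Camk1g*. All 10 were found by their gene IDs and all passed the filter on low counts. Poly(A) RNA-seq libraries came from hippocampi of 12 C57BL/6N mice aged 6 to 7 months, 6 *Gadd45a*-KO mice and 6 wild-type siblings (*Gadd45a*-WT) from crosses of heterozygous parents. Every mouse went through the passive avoidance (PA) test, in which entering a dark compartment is paired with a foot shock, and was killed 1 h later, so that no untrained group enters the comparison. The *Gadd45a* deletion is constitutive and affects all cells, and per the study's methods exon 4 of the gene remains in the mutant. The comparison asks which hippocampal mRNAs differ with loss of Gadd45α, a stress-inducible protein, after aversive learning.

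Calmodulin that has bound calcium activates these kinases. CaMKII, assembled from α, β, γ and δ subunits, is concentrated at the postsynaptic density, and phosphorylation of a threonine in its regulatory segment keeps it active after calcium has fallen, which is needed for long-term potentiation in CA1. The CaMKK enzymes sit upstream in a cascade: they phosphorylate CaMKI in the cytoplasm, known for its part in neurite growth, and CaMKIV in the nucleus, known for phosphorylation of CREB.

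The CaMKII genes are paralogs, and the bases around the codon of that threonine show how far they differ there. The coding stretch around it is printed for the β, δ and γ genes from the longest coding transcript of each in an annotation of NCBIM37, 30 bases long, 5′ to 3′ on the coding strand, with the threonine codon in capitals. All stretches lie within exon 11 of the transcript used, and a script placed the threonine at residue 287 in each. For *Camk2b* it is chr11:5888985-5889014 (minus strand), for *Camk2d* chr3:126500647-126500676 (plus strand) and for *Camk2g* chr14:21579646-21579675 (minus strand).
Camk2b: cacagacaggagACTgtggaatgtctgaag
Camk2d: cacaggcaggagACTgtagactgcttgaag
Camk2g: catcgccaagagACGgtagagtgcttacgc
*Camk2b* and *Camk2d* differed at 5 of the 30 bases, *Camk2d* and *Camk2g* at 10 and *Camk2b* and *Camk2g* at 13. No window of 51 bases, the length of a read, was identical between any of the 10 kinase genes. Of the 5075 distinct windows in annotated *Camk2b* transcripts, the 10193 of *Camk2d* and the 4922 of *Camk2g*, 0 occurred in a transcript of another gene. For *Camk2a* 0.0696% and for *Camk4* 0.621% of windows did, all shared with genes outside the family. Reads of the paralogs could therefore be told apart wherever they matched exactly, and windows with mismatches were not examined.

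The files held 44594261 to 55540601 reads on genes per library, and levels are given as CPM, counts scaled to the library's reads on genes with TMM factors. Of 16399 genes tested with edgeR's quasi-likelihood test, 434 passed 1% FDR (2.65%), 430 of them lower and 4 higher under the label *Gadd45a*-KO. *Gadd45a* itself had 2.19 to 3.43 CPM under the label *Gadd45a*-WT and 20.5 to 23.1 CPM under *Gadd45a*-KO (log2 fold change 3.06, standard error 0.09, edgeR adjusted p = 1.33e-10), so reads counted over the whole gene went against the label. These counts take in the exon that remains in the mutant and so cannot check the deletion itself, and every direction below is that of the labels. All 5 markers of CA3 and all 5 of dentate granule cells were detected in every library, as were 4 of the 5 of CA1; the other, *Pou3f1*, had 0 to 0.12 CPM. KO-labelled replicates 2 and 3 stood apart in thalamic markers, with summed levels of 361.7 and 529.5 CPM against 115 to 163 CPM in the other 10 libraries, and replicate 3 also in oligodendrocyte markers (7311 CPM against 2317 to 3738 CPM). None of the 8 thalamic markers was at 0, and their edgeR adjusted p-values between the labels were 0.166 or higher. At an unadjusted edgeR p under 0.05, 5 of these 8 and all 6 oligodendrocyte markers were higher under *Gadd45a*-KO. That p held for 13.7% of all genes in either direction. Log2 fold changes were above 0 for all 5 CA3 markers. They were below 0 for all 5 dentate markers and the 4 CA1 markers tested.

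None of the 10 kinase genes passed 1% FDR in edgeR, and none did in DESeq2, beside the 2.65% of all genes that passed in edgeR. *Camk1* alone had an unadjusted p under 0.05, beside 13.7% of all genes tested. The log2 fold changes, labelled *Gadd45a*-KO against labelled *Gadd45a*-WT, ran from -0.16 for *Camk4* to 0.14 for *Camk2d*, with a median of -0.03 beside 0.00 over all genes tested. They were below 0 for 8 of the 10 genes, beside 48.2% of all genes. In none of the 10 did the 6 libraries of one label lie entirely above or below the other 6, which held for 3.31% of all genes. In bulk tissue, fewer cells of a type and less RNA per cell cannot be told apart.

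**Figure D1:**
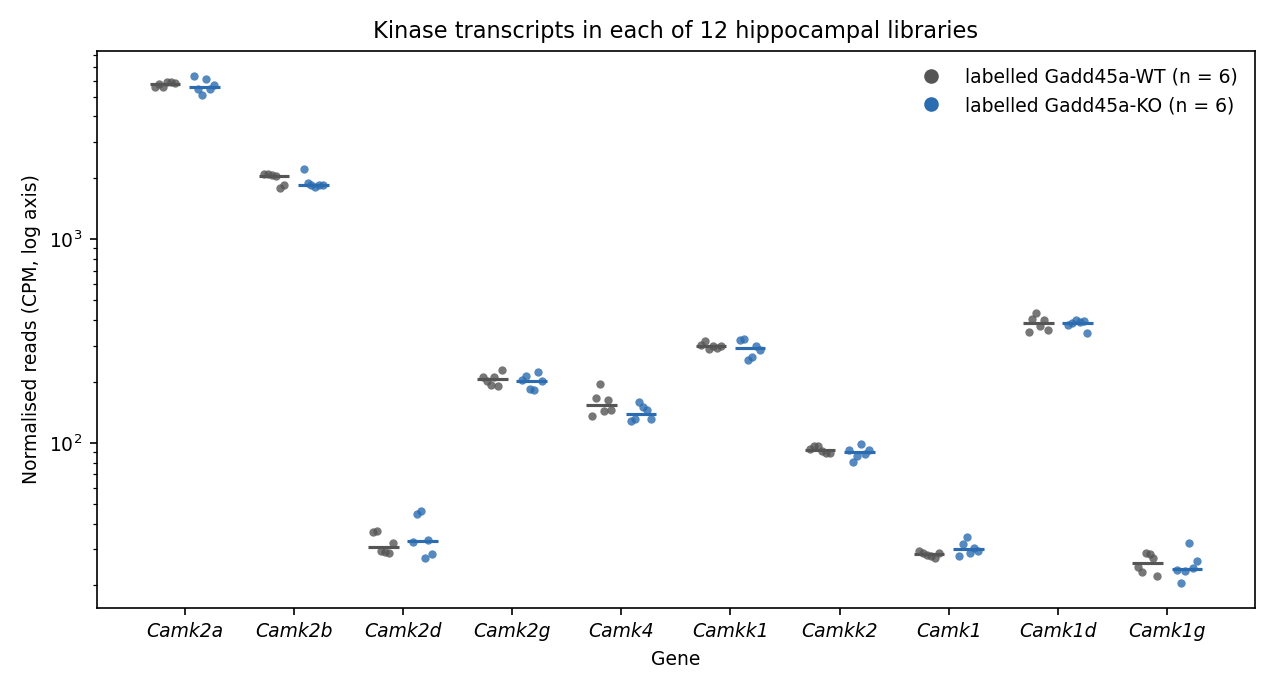
Level of each kinase transcript in each library (y axis: CPM, log axis; x axis: gene). Points are libraries, grey for the 6 labelled *Gadd45a*-WT and blue for the 6 labelled *Gadd45a*-KO, and lines mark the medians. The labels overlap for every gene, and *Camk2a* lies above the others at 5097 to 6316 CPM.

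*Camk2a* encodes the α subunit, the main form of CaMKII in forebrain excitatory neurons. In the libraries labelled *Gadd45a*-WT its lowest, median and highest levels were 5604, 5802 and 5899 CPM, and under *Gadd45a*-KO 5097, 5581 and 6316 CPM. The KO-labelled libraries lay on both sides, 3 below and 2 above all those labelled *Gadd45a*-WT. The log2 fold change was -0.02 (standard error 0.05, edgeR adjusted p = 0.927), with a 95% interval of the change from -8.79% to 6.55%. By mean CPM *Camk2a* ranked 5th of the 16399 genes tested, from 248392 to 327094 reads per library.

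*Camk2b*, on chromosome 11 from 5869647 to 5966365, encodes the β subunit, which also binds actin and places the enzyme in spines. Its lowest, median and highest levels were 1775, 2046 and 2085 CPM under the label *Gadd45a*-WT and 1811, 1844 and 2206 CPM under *Gadd45a*-KO. A single library, KO-labelled replicate 1, made the highest value, while the other 5 of that label lay at 1811 to 1896 CPM, within the range of the WT-labelled libraries. The log2 fold change was -0.05 (standard error 0.06, edgeR adjusted p = 0.787, interval from -11.6% to 5.00%). *Camk2b* ranked 24th by mean CPM.

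*Camk2g*, on chromosome 14 from 21554097 to 21613310, encodes the γ subunit, which can shuttle calcium/calmodulin to the nucleus. It had 190.1, 205.7 and 227.4 CPM (lowest, median, highest) under the label *Gadd45a*-WT and 182.4, 202.4 and 221.7 CPM under *Gadd45a*-KO. The ranges overlapped almost entirely, and the log2 fold change was -0.03 (standard error 0.05, edgeR adjusted p = 0.887).

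*Camk2d*, on chromosome 3 from 126299220 to 126547972, encodes the δ subunit, best known from heart. It spread most of the 10 between libraries, the highest level being 1.70 times the lowest. Lowest, median and highest levels were 28.8, 30.9 and 37.1 CPM under the label *Gadd45a*-WT and 27.2, 33.1 and 46.2 CPM under *Gadd45a*-KO. KO-labelled replicates 2 and 3, the pair with the most thalamic marker reads, had 44.96 and 46.19 CPM, and no other library exceeded 37.1 CPM. The log2 fold change was 0.14 (standard error 0.13, edgeR adjusted p = 0.735, interval from -8.82% to 33.1%). Without these 2 libraries it was -0.08 (edgeR adjusted p = 1.00, beside 0.226 to 1.00 over all alternatives), an alternative chosen after the data had been seen. With all 12 libraries and an offset for exon length, the log2 fold change of *Camk2d* was 0.27 (edgeR adjusted p = 0.366). With the replicate block added to the offset it was 0.255 (edgeR adjusted p = 0.226). The exon length used in the offset joins the exons of all annotated transcripts. For *Camk2d* it is 16069 nt, while the longest coding transcript has 4388 nt.

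Over the 12 libraries, *Camk2d* rose with the summed thalamic markers. After the mean of each label had been taken out of the log2 values, Pearson's r was 0.93 and Spearman's rho 0.88 (permutation within labels, p = 5e-05 and 0.00013, and 0.0055 and 0.0121 after adjustment over the 110 relations between 10 kinases and 11 marker lists). Leaving out KO-labelled replicates 2 and 3, which lie farthest from the median marker level, r was 0.87. It was 0.87 within the label *Gadd45a*-WT and 0.97 within *Gadd45a*-KO, with 6 libraries each. Under *Gadd45a*-WT the marker sum (114.8 to 163.2 CPM) varied most through 1 marker, *Prkcd*, at 33.3 to 69.4 CPM. *Tcf7l2*, *Synpo2* and *Ramp3* were low there, at 3.47 to 5.30, 4.70 to 5.91 and 3.42 to 4.95 CPM. Single markers were not tested within a label. *Camk2d* with the thalamic sum was the only relation of the 110 whose Pearson p passed 0.05 after adjustment. By Spearman's rho, *Camk2d* fell with the CA1 markers (rho = -0.92, adjusted permutation p = 0.0121), and *Camk1* rose with the thalamic markers (rho = 0.87, adjusted permutation p = 0.0418) and fell with the CA1 markers (rho = -0.92, adjusted permutation p = 0.0205). Pearson's r was -0.84, 0.89 and -0.78 for these relations in turn, and -0.75, 0.72 and -0.78 without the 2 libraries farthest from the median marker level. In each r with 2 libraries left out, the label means taken from the values still included those libraries. Such an r is therefore not free of them. The points share libraries and the lists of markers were chosen with results of these data known. The part of tissue makeup in these levels was not tested.

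**Figure D2:**
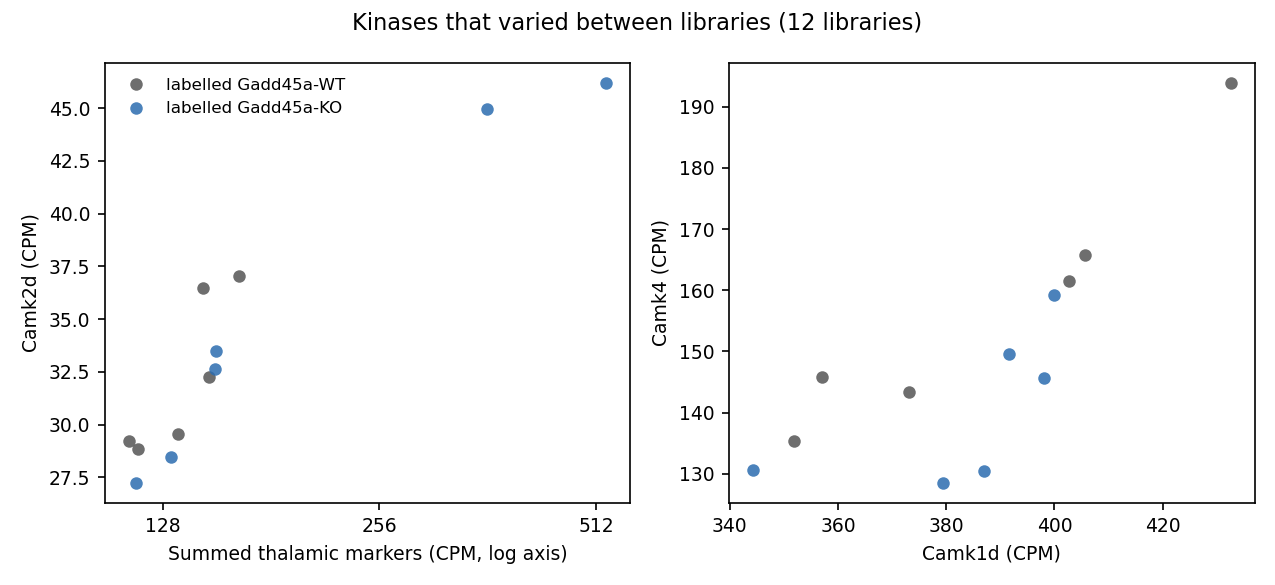
Left, *Camk2d* (y axis, CPM) against the summed level of 8 thalamic markers (x axis, CPM, log axis). Right, *Camk4* (y axis, CPM) against *Camk1d* (x axis, CPM). Points are libraries, grey labelled *Gadd45a*-WT and blue labelled *Gadd45a*-KO. The blue pair at 361.7 and 529.5 CPM of thalamic markers also has the highest *Camk2d*.

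*Camk2a* led the CaMKII transcripts in all 12 libraries, and the small share of *Camk2d* varied most for its size. *Camk2a* held 70.7% to 75.1% of the reads on the 4 subunit genes, *Camk2b* 22.3% to 26.2%, *Camk2g* 2.24% to 2.94% and *Camk2d* 0.335% to 0.644%. The mean share of *Camk2a* was 72.2% ± 1.60 under the label *Gadd45a*-WT and 72.6% ± 1.47 under *Gadd45a*-KO (SD, n = 6 each). The difference between the labels was smaller than the SD of either for *Camk2a*, *Camk2b* and *Camk2g*. For *Camk2d*, with 0.404% ± 0.0461 and 0.459% ± 0.129 (SD, n = 6 each), it was smaller than the SD under the label *Gadd45a*-KO, where replicates 2 and 3 gave the highest shares. The ratio of *Camk2a* to *Camk2b* CPM ran from 2.70 to 3.32 and from 2.76 to 3.37. Together the subunits summed to 7887 to 8169 CPM under *Gadd45a*-WT and 7174 to 8758 CPM under *Gadd45a*-KO, between 0.717% and 0.876% of the scaled reads.

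**Figure D3:**
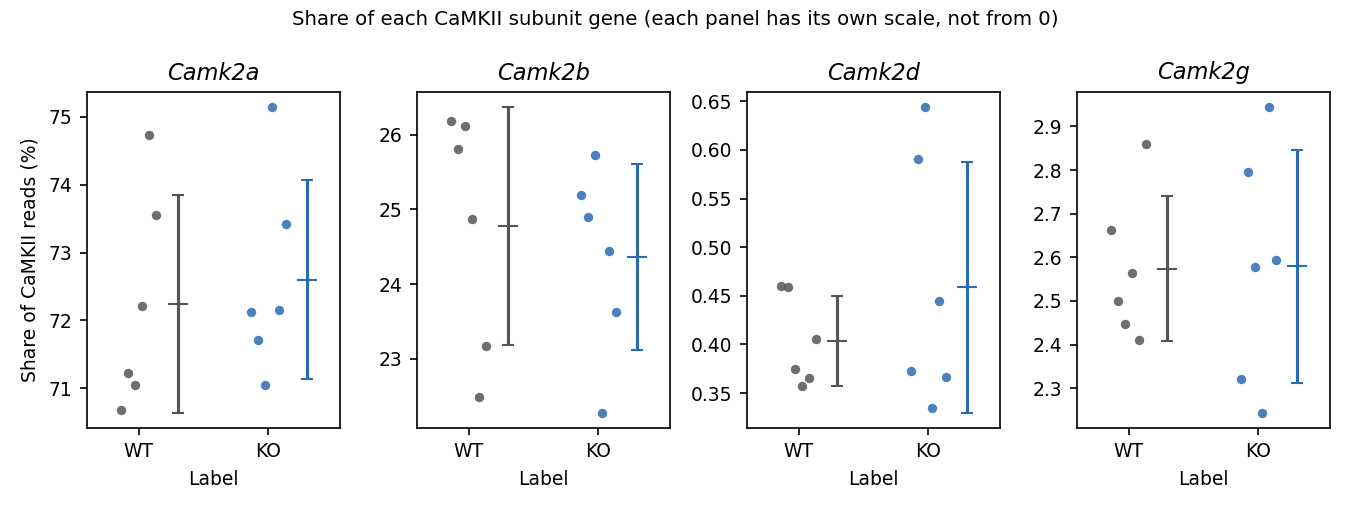
Share of each subunit gene in the reads on the 4 CaMKII genes (y axis, percent; each panel has its own scale, not starting at 0) by label (x axis). Points are libraries and bars the mean with SD, n = 6. The labels overlap in each panel, and 2 KO-labelled libraries carry the highest *Camk2d* shares.

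Levels can be compared between genes only per length, so CPM were also divided by the annotated exon length in kb. On that scale the median over 12 libraries was 768 CPM per kb for *Camk2a* and 205 for *Camk2b*. *Camkk1* followed with 80.2, *Camk1d* with 52.4, *Camk2g* with 42.0, *Camkk2* with 28.9 and *Camk4* with 11.7 CPM per kb. *Camk1g* had 7.78, *Camk1* 4.75 and *Camk2d* 2.02 CPM per kb. Neighbours in this order did not overlap over the 12 libraries, except *Camk1d* with *Camk2g*. The lower end of the order depended on the length used. Per kb of the longest transcript *Camk1* (19.3) stood above *Camk4* (11.8), *Camk1g* (9.88) and *Camk2d* (7.39), and these last 3 overlapped with their neighbours. *Camkk1*, the upstream kinase also called CaMKKα, was thus above both its paralog *Camkk2* and its targets on either scale.

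*Camkk1*, on chromosome 11 from 72832510 to 72855575, had lowest, median and highest levels of 290.6, 298.9 and 317.6 CPM under the label *Gadd45a*-WT and of 255.6, 292.3 and 321.8 CPM under *Gadd45a*-KO. The KO-labelled libraries spread more widely, 3 below and 2 above all those of the other label. Its log2 fold change was -0.05 (standard error 0.06, edgeR adjusted p = 0.812).

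*Camkk2*, on chromosome 5 from 123183213 to 123229391, encodes CaMKKβ, which also phosphorylates the energy sensor AMPK. Lowest, median and highest levels were 88.8, 92.2 and 96.6 CPM under *Gadd45a*-WT and 80.6, 90.3 and 98.5 CPM under *Gadd45a*-KO. Again the KO-labelled range enclosed the other, with a log2 fold change of -0.04 (standard error 0.04, edgeR adjusted p = 0.762).

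*Camk4* encodes CaMKIV, the nuclear kinase of the cascade. Its levels under *Gadd45a*-WT were 135.4 CPM at the lowest, 153.6 at the median and 193.9 at the highest, and under *Gadd45a*-KO 128.5, 138.1 and 159.2 CPM. Of the KO-labelled libraries 3 lay below all those labelled *Gadd45a*-WT, and WT-labelled replicate 3 alone made the value of 193.9 CPM. The log2 fold change, the lowest of the 10, was -0.16 (standard error 0.08, edgeR adjusted p = 0.409). The interval ran from -20.9% to 0.731%, and the exact permutation p of the mean log2 CPM was 0.106 (two-sided). Without WT-labelled replicate 3 the log2 fold change was -0.09, and with an offset for exon length -0.06. Over all alternatives the adjusted p ran from 0.12 to 0.828.

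*Camk1*, on chromosome 6 from 113284118 to 113293978, encodes CaMKIα, a target of CaMKK. The libraries labelled *Gadd45a*-WT were tight, with 27.3, 28.4 and 29.4 CPM as lowest, median and highest, and those labelled *Gadd45a*-KO had 27.9, 29.98 and 34.4 CPM. Of the latter 4 lay above all of the former, and the ranges overlapped. The log2 fold change was 0.10 (standard error 0.05, edgeR p = 0.0461 and adjusted p = 0.352), and the exact permutation p of the mean log2 CPM was 0.0520 (two-sided). KO-labelled replicates 2 and 3 held the highest values, 31.7 and 34.4 CPM, and without them the log2 fold change was 0.04 (edgeR adjusted p = 1.00, beside 0.175 to 1.00 over all alternatives).

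*Camk1d*, on chromosome 2 from 5214503 to 5635561, encodes CaMKIδ and was the most abundant CaMKI gene, with 351.9, 388.0 and 432.6 CPM (lowest, median, highest) under *Gadd45a*-WT and 344.3, 389.3 and 400.0 CPM under *Gadd45a*-KO. Both medians nearly coincided, and the log2 fold change was -0.01 (standard error 0.05, edgeR adjusted p = 0.952).

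*Camk1g*, on chromosome 1 from 195172540 to 195196491, encodes CaMKIγ, a membrane-anchored form found in neurons. It had 22.2, 25.9 and 29.0 CPM under *Gadd45a*-WT and 20.6, 23.9 and 32.3 CPM under *Gadd45a*-KO, from 939 to 1583 reads per library. The log2 fold change was -0.04 (standard error 0.10, edgeR adjusted p = 0.933, interval from -15.5% to 12.6%).

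**Figure D4:**
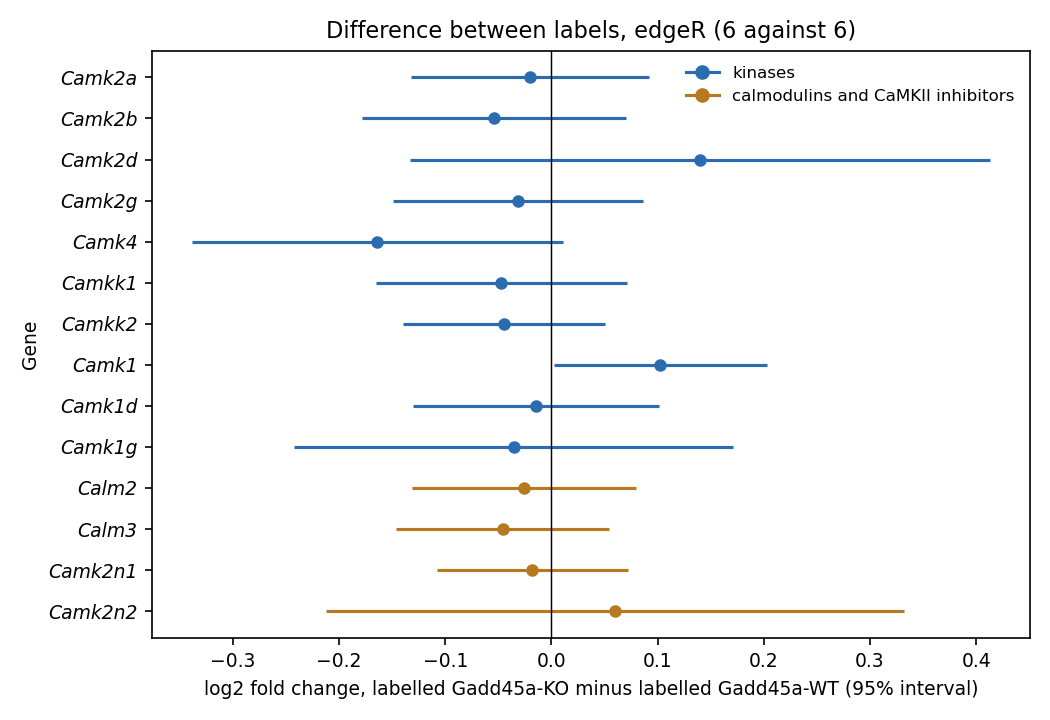
Log2 fold change of each kinase gene, *Calm2*, *Calm3* and both CaMKII inhibitor genes (x axis, labelled *Gadd45a*-KO minus labelled *Gadd45a*-WT; y axis, gene). Points are edgeR estimates over 6 against 6 libraries and lines their 95% intervals. The intervals cross 0 for every gene but *Camk1*, whose adjusted p is 0.352.

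Under the label *Gadd45a*-KO most of the kinases were also less even, by differing amounts. The coefficient of variation of CPM was wider there than under *Gadd45a*-WT for 8 of the 10 genes, all but *Camk4* and *Camk1d*, beside 53.5% of all genes tested. For *Camk2a* it was 2.37% under *Gadd45a*-WT and 8.02% under *Gadd45a*-KO, for *Camkk1* 3.18% and 9.58%, and for *Camk1* 2.71% and 7.67%. Without KO-labelled replicates 2 and 3 it was wider for 7 of 10 genes, beside 46.3% of all genes, and 6.74% for *Camk2a* and 3.69% for *Camk1*. *Camk2d* was then narrower than under *Gadd45a*-WT (10.1% against 11.5%). Small differences count among the 8, such as 6.63% and 7.63% for *Camk2g*. For *Camk2b* it was 6.81% and 7.85%, the latter with the high KO-labelled replicate 1. The genes share their libraries, and these spreads were not tested.

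The genes also covaried between libraries of the same label. Among the 45 pairs, with the mean of each label taken out, 2 passed 0.05 after adjustment of Pearson's permutation p. *Camk4* and *Camk1d* rose together (r = 0.86, p = 0.00069, adjusted 0.0311, and rho = 0.80, p = 0.00391, adjusted 0.0587, by permutation). Without the 2 libraries farthest from the median of *Camk4*, WT-labelled and KO-labelled replicate 3, r was 0.80. It was 0.96 within *Gadd45a*-WT and 0.65 within *Gadd45a*-KO. *Camk2a* and *Camk1* moved in opposite directions (r = -0.90, p = 0.0015, adjusted 0.0338, and rho = -0.80, p = 0.0109, adjusted 0.123, by permutation), with r = -0.73 without KO-labelled replicates 1 and 3, -0.51 within *Gadd45a*-WT and -0.94 within *Gadd45a*-KO. Next came *Camk2d* with *Camk1* (r = 0.84, adjusted permutation p = 0.0521) and with *Camk1g* (r = -0.77, adjusted permutation p = 0.0614), at r = 0.71 and -0.78 without KO-labelled replicates 2 and 3. For every pair, the r without 2 libraries used label means that still included them, so it is not free of them. The paralogs *Camkk1* and *Camkk2* had r = -0.28, and *Camk2a* and *Camk2b* had r = 0.27. As shown above, *Camk2d* and *Camk1* also varied with marker levels, and their part in these relations was not tested.

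**Figure D5:**
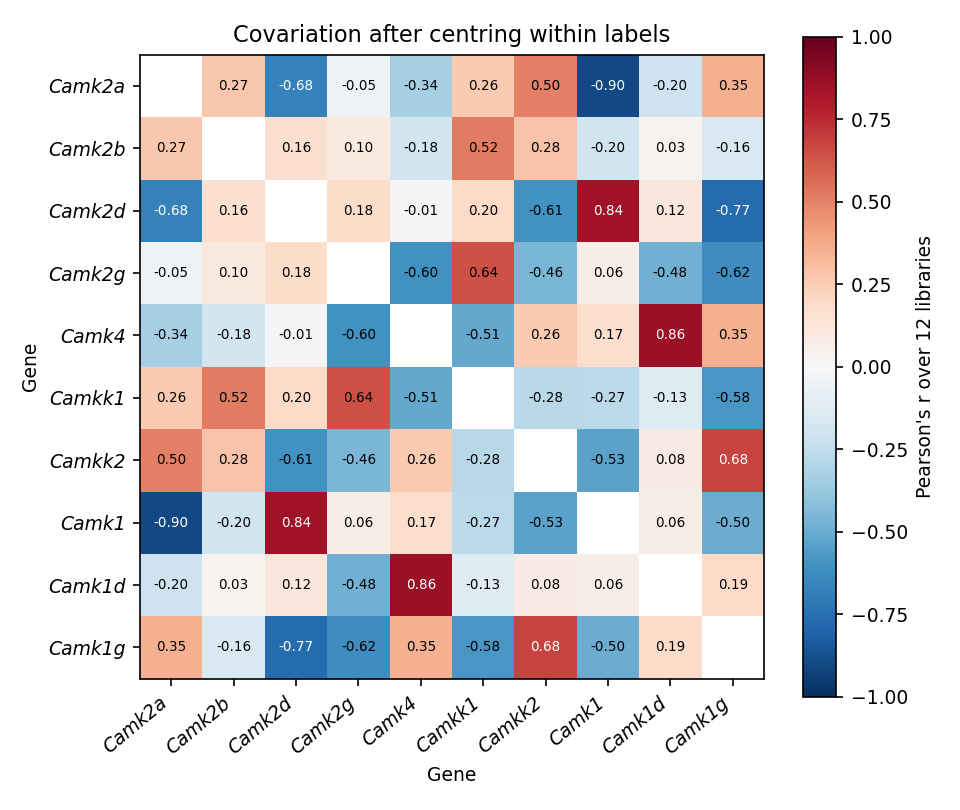
Pearson's r of each pair of kinase genes over 12 libraries (x and y axes: gene; colour and printed number: r) after the mean of each label was taken from the log2 CPM. Red marks genes that rose together, such as *Camk4* and *Camk1d* at 0.86, and blue those that moved apart, such as *Camk2a* and *Camk1* at -0.90.

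Among 9781 other genes with a mean of at least 10 CPM, the transcript that followed *Camk2a* most closely over the 12 libraries, by r of the same centred values, was *Htr1a*, a serotonin receptor gene (r = 0.95), followed by *Shisa7* (0.92). For *Camk2b* they were *Mark2*, a microtubule-affinity-regulating kinase (0.97), and *Dagla*, which makes an endocannabinoid (0.91). *Camk2d* was followed by *Anxa5* (0.94) and *Zic1* (0.92), a transcription factor that is also in the thalamic marker list. For *Camk2g* they were *D0H4S114* (0.95) and the synaptic vesicle gene *Sv2c* (0.94). *Camk4* was nearest to *Uhrf1bp1l* (0.95) and the cAMP phosphodiesterase gene *Pde4d* (0.95), and *Camk1d* to *Cables2* (0.95) and *Aak1* (0.95), a kinase of endocytosis. *Camkk1* was nearest to *Tbl2* (0.95), *Camkk2* to *Rnf41* (0.93), *Camk1* to *Osbpl5* (0.96) and *Camk1g* to *Prosc* (0.94). With so many genes searched over 12 libraries, high values are to be found for any gene, and they describe these libraries.

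The activators and inhibitors of the kinases also overlapped between the labels. *Calm2*, a calmodulin gene, had medians of 1337 CPM under *Gadd45a*-WT and 1290 CPM under *Gadd45a*-KO and a log2 fold change of -0.03 (edgeR adjusted p = 0.899). *Calm3*, which encodes the same protein, had medians of 1630 and 1557 CPM and a log2 fold change of -0.05 (edgeR adjusted p = 0.769). *Camk2n1*, an endogenous inhibitor of CaMKII, had medians of 727.9 and 707.9 CPM and a log2 fold change of -0.02 (edgeR adjusted p = 0.920). Its paralog *Camk2n2* had medians of 26.1 CPM under both labels and a log2 fold change of 0.06 (edgeR adjusted p = 0.912).

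Of 43 further genes of the pathway, *Calm2*, *Calm3* and the inhibitors included, none passed 1% FDR in edgeR, beside 2.65% of all genes. In DESeq2, run without edgeR's filter on low counts, 1 of the 43 passed, beside 680 of the 25857 genes with any read. In edgeR with the replicate number as a block 2 of the 43 passed, beside 514 of 16399 genes. At an unadjusted p under 0.05, 7 of the 43 (16.3%) were lower and none higher in the libraries labelled *Gadd45a*-KO, beside 9.35% of all genes that were lower. The median log2 fold change of the 43 was -0.04. The 8 phosphatase genes, which include the calcineurin subunits that oppose CaMKII, had a median of 0.00, and the 6 CaMKII substrate genes, among them the AMPA receptor subunit *Gria1*, one of -0.06. In 2 of the 43, *Creb1* and *Arhgef7*, all 6 KO-labelled libraries lay below the other 6, beside 3.12% of all genes.

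The 5 of these genes with the lowest p-values were all lower under *Gadd45a*-KO. *Grin2b* encodes the NMDA receptor subunit that anchors CaMKII at the synapse. It had 33.2, 77.3 and 110.7 CPM (lowest, median, highest) under *Gadd45a*-WT and 11.98, 23.7 and 46.4 CPM under *Gadd45a*-KO, with a log2 fold change of -1.46 (standard error 0.34, edgeR adjusted p = 0.0201). Over the alternatives its adjusted p ran from 0.00407 with DESeq2 to 0.0845. Of the KO-labelled libraries 4 lay below all the others. *Creb1*, the transcription factor that CaMKIV phosphorylates, had 58.8, 62.3 and 67.7 CPM and 52.0, 57.4 and 58.4 CPM. The groups did not overlap, and its log2 fold change was -0.17 (standard error 0.04, edgeR adjusted p = 0.0412). Over the alternatives the log2 fold change of *Creb1* ran from -0.21 to -0.11. Its adjusted p ran from 0.00551 to 0.153, the latter with an offset for exon length. Its exact permutation p was 0.00216, the smallest that 6 against 6 can give and the value of any gene whose labels do not overlap. That held for 3.31% of all genes tested. As *Creb1* was picked by p in this same comparison, this p is no separate evidence.

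*Prkaa2*, an AMPK catalytic subunit downstream of CaMKKβ, had a log2 fold change of -0.21 (edgeR adjusted p = 0.0834). Over the alternatives its adjusted p ran from 0.00475 with the replicate block to 0.239. *Dclk1*, a kinase related to the CaMK family that binds microtubules, had -0.16 (edgeR adjusted p = 0.0869). *Arhgef7*, encoding the exchange factor βPIX that CaMKI phosphorylates, had -0.10 (edgeR adjusted p = 0.123). With an offset for exon length the log2 fold changes of *Dclk1* and *Arhgef7* were -0.045 and 0.013. No library labelled *Gadd45a*-KO lay above all those labelled *Gadd45a*-WT in any of the 5. As the 5 were picked by p in this same comparison, that is no separate evidence.

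The annotated 3′UTRs of the 10 kinase genes differ widely, from 190 nt at the longest for *Camk1* to 10566 nt for *Camk4*, the genes with the lowest p-values of the 10. *Camk1* had a log2 fold change of 0.10 and *Camk4* of -0.16. *Camk1d*, with the second longest at 5526 nt, had -0.01, *Camk2a* with 3372 nt had -0.02, and *Camk2d* with 2684 nt had 0.14. Across the 10 genes, which are not replicates, Spearman's rho of length and log2 fold change was -0.12, and Pearson's r with log2 length was -0.53. *Camk1* and *Camk4* lie at the ends of the lengths, and the relation without them was not tested. *Camk1g* with 882 nt and *Camkk2* with 969 nt had -0.04 each (standard errors 0.10 and 0.04). The part of 3′UTR length in these values was not tested. Annotated lengths leave out any extension beyond the annotation. With an offset for exon length the values of *Camk2a*, *Camk2b* and *Camk1d* turned above 0, at 0.03, 0.01 and 0.03. Those of *Camk2d* and *Camk1* stayed above 0, at 0.27 and 0.12.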

How the data were processed

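The authors aligned strand-specific poly(A) RNA-seq reads to NCBIM37 with TopHat 1.4.1 and deposited raw read counts per Ensembl gene from HTSeq 0.5.4p3, without normalization or pooling. Rows naming no gene (24.1% to 26.3% of counts) were left out. Groups came from the labels. After edgeR's filter and TMM scaling (edgeR 4.0.16, R 4.3.3), genes were compared by its quasi-likelihood test with no covariates, with Benjamini-Hochberg adjustment and a threshold of 1% FDR. Standard errors were taken from the log2 fold change and the F statistic. Log2 CPM used a prior count of 2. Correlations used 100000 permutations within labels. Alternatives included DESeq2 1.42.0 and sva 3.50.0. Fits were tested on simulated data. No libraries of the same label were duplicates: such pairs differed by at least 9.03 in chi-square per degree of freedom.

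The kinase genes, lists and tests were chosen with earlier results of these data known. Named genes were the 10 kinases, *Calm2*, *Calm3* and the CaMKII inhibitors, pathway genes past 1% FDR or among the 5 lowest p-values, the 2 genes most like each kinase, and *Gadd45a*. The threonine stretch, 51-base windows, spread, 3′UTR lengths and the removal of KO-labelled replicates 2 and 3 were added after seeing the data. One gene of the pathway list is not reported here.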

Additional observations from a re-analysis of the deposited data

Results flagged for a closer look

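Of 40 groups of 6 libraries examined, 4 held a library far from the rest, where chance alone gives about 1 in 20, or 2.0. *Camk2b* in KO-labelled replicate 1 had 2206 CPM and the rest of that label 1811 to 1896 CPM. *Camk1d* in KO-labelled replicate 6 had 344.3 CPM and the rest 379.4 to 400.0 CPM. *Camk2n2* in KO-labelled replicate 3 had 39.2 CPM and the rest 22.8 to 28.5 CPM. *Arhgef7* in KO-labelled replicate 3 had 134.3 CPM and the rest 143.2 to 146.8 CPM. Replicate 3 is the library with the highest thalamic and oligodendrocyte marker levels, and the part of these in *Camk2n2* and *Arhgef7* was not tested.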

How the results depend on the processing

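No kinase gene passed 1% FDR under any alternative, the lowest adjusted p being 0.12 for *Camk4* with the replicate block. Of 210 refits of single kinases, 186 kept direction and side of the threshold and 24 turned direction. With the length offset *Camk2a*, *Camk2b* and *Camk1d* had log2 fold changes of 0.026, 0.012 and 0.029, and with the offset and the replicate block 0.021, 0.013 and 0.032. *Camk2d* kept its direction, at 0.272 with the offset and 0.255 with offset and block. *Camk1* also kept its direction, at 0.124 and 0.122. With 1 surrogate variable *Camk2a*, *Camk2d* and *Camk1g* had 0.023, -0.052 and 0.042. Without KO-labelled replicates 2 and 3, *Camk2a*, *Camk2d*, *Camkk2* and *Camk1g* had 0.031, -0.081, 0.0050 and 0.048. The causes were not tested. Leaving out each library gave -0.045 to 0.016 for *Camk2a*, -0.09 to -0.03 for *Camk2b*, 0.06 to 0.21 for *Camk2d*, -0.052 to 0.0066 for *Camk2g*, -0.20 to -0.09 for *Camk4*, -0.07 to -0.01 for *Camkk1*, -0.07 to -0.01 for *Camkk2*, 0.07 to 0.13 for *Camk1*, -0.030 to 0.028 for *Camk1d* and -0.11 to 0.023 for *Camk1g*. All genes passing numbered 434, against 680 with DESeq2, 281 with the length offset, 746 at 5% FDR, 202 without KO-labelled replicates 2 and 3, and 242 to 470 with a library left out. Pathway genes passing numbered 1 with DESeq2 (*Grin2b*), 2 with the replicate block (*Grin2b*, *Prkaa2*) and 1 with offset and block (*Grin2b*). With the surrogate variable 1 passed (*Creb1*), and with a library left out 0 to 1 (*Grin2b*, without WT-labelled replicate 1). At 5% FDR 2 of the 43 passed (*Grin2b*, *Creb1*), beside 746 of all 16399 genes tested. Shares of CaMKII reads, 72.4% *Camk2a*, 24.6% *Camk2b*, 0.431% *Camk2d* and 2.58% *Camk2g*, became 74.9%, 20.8%, 0.207% and 4.12% per kb of exon, and 67.9%, 28.4% and 3.24% for *Camk2a*, *Camk2b* and *Camk2g* per kb of the longest transcript. Deviations of same-numbered libraries correlated above 0.1 in 5 of 6 pairs (mean r 0.14, from -0.08 to 0.26) and in 8 of the 30 other pairs (mean r -0.03). This is a hint of pairing from the data, but pair 6 was below 0.1, not every library correlated best with its own number, and the labels do not say what a number marks, so the block was kept as an alternative. With the replicate block 514 genes passed, and *Camk4* had -0.16.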
